A study of Homo sapiens with 6 samples.

Results

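RNA-Sequence counts of long intergenic noncoding RNAs were compared between MDA-MB-231 shBry cells and MDA-MB-231 shNC cells. The transcripts were the rows of the gene table whose symbol was LINC followed by 5 digits, and they were selected by their counts, with 200 or more counts summed over the 6 libraries. Of 935 such symbols, 91 met this rule, 283 had between 1 and 199 counts and 561 had no count in any library, out of 54259 rows in all. The counts that chose the transcripts came from both groups together. The rule did not use the difference between the groups directly, but a weak transcript could enter through the group where it was high. LINC00239 entered with 204 counts in shBry and 27 in shNC, LINC00518 with 237 and 48, and LINC01583 with 163 and 47. These are 3 of the 4 largest rises given below. Among the falls, LINC00173 entered with 86 counts in shBry and 187 in shNC, and LINC01273 with 76 and 150. All 91 passed the filter on low counts. LINC00470 with 205 counts and LINC00632 with 208 counts stood just inside the limit. LINC00862 and LINC01615, with 199 counts each, stood just outside it, with log2 fold changes of 0.81 and 0.77.

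The MDA-MB-231 line was established from a human breast carcinoma and has a mesenchymal character. The shBry group held 3 libraries of cells that carry a short hairpin RNA (shRNA) against brachyury, a T-box transcription factor, and the shNC group held 3 libraries of the same line with a control hairpin. Both groups were thus cells of 1 line with a hairpin, and no further treatment is named. The labels do not say how many hairpin sequences were used, whether the cells were clones, or whether the 3 libraries of a group came from separate cultures, so p-values reflect the spread between libraries, which may be technical.

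The LINC symbols are a numbering system. A long noncoding RNA (lncRNA) gene that lies between protein-coding genes and has no described function receives a LINC number, and it may be renamed once a function is found. Such RNAs are often spliced and polyadenylated like messenger RNAs, and they are known for low levels and strong differences between cell types. Some act in the nucleus on neighbouring genes, some bind proteins or microRNAs in the cytoplasm, and some were later found to encode very short proteins.

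Each library had between 19319411 and 22985371 counts, of which the 91 transcripts together took between 0.0858% and 0.106%. CPM below are counts per 1000000 counts of the library, scaled by the TMM method, which corrects for differences in library composition. A count of 0 allows up to 3 counts, or between 0.131 and 0.155 CPM, and this limit covers counting error only. The brachyury row, under its older symbol T, had 0 counts in all 6 libraries, so a knockdown could not be seen in these counts. The study describes brachyury as constitutively overexpressed in this line, and the reason for the difference was not tested. All 8 markers that MDA-MB-231 should carry had counts, and their summed level was 7720 to 8190 CPM in shBry and 8620 to 8990 CPM in shNC. CAV1 and S100A4 among them had log2 fold changes of -1.11 and -0.90, and the others ran from -0.47 for MSN to 0.34 for CD44. The 6 genes that are low or absent in this line summed to 19.4 to 22.3 CPM in shBry and 10.8 to 14.1 CPM in shNC. Of these, ELF3 had a log2 fold change of 3.04, EPCAM of 1.47 and GATA3 of 0.33. ESR1, PGR and CDH1 had too few counts to be tested. The deposited description calls the RNA pericardial. Of 4 leukocyte markers 2 were at 0 and the sum reached at most 0.229 CPM, and of 6 heart muscle markers 4 were at 0 and the sum reached at most 0.183 CPM. Of 5 mesothelium markers 1 was at 0, and their sum was 51.4 to 57.6 CPM in shBry and 40.1 to 41.8 CPM in shNC. Within the last list MSLN and LRRN4 had log2 fold changes of 0.52 and 0.76, while CALB2 had -2.52, with 222 of its 281 shNC counts in replicate 3. The sums of the markers present in the line, of those low in it and of the mesothelium markers differed between the groups without overlap, and their part in the results below was not tested. In bulk RNA, fewer cells of a type and less RNA per cell cannot be told apart.

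The name intergenic did not hold for all of the transcripts. In GENCODE 29, 82 of the 91 could be placed on GRCh38. Of these, 56 were annotated as lincRNA, 11 as processed transcript, 4 as antisense, 4 as transcribed pseudogene, 1 as bidirectional promoter lncRNA and 6 as protein coding. Of the 76 noncoding ones, 39 lay over 10 kb from the nearest protein-coding gene, 17 lay within 10 kb and 16 overlapped a coding gene. The other 4 did not overlap it but started within 1 kb of its start in the opposite direction. Overlap was judged first, so LINC00909 and LINC00476 stand among the 16. They start 638 and 276 bases from the starts of ZNF407 and ERCC6L2, on the opposite strand. Exons of 43 transcripts overlapped exons of another gene. Whether reads were counted by strand is not given in the sources used here, so reads of overlapping genes could not be told apart.

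The windows around the transcription start are shown for the LINC transcripts with the largest changes in each direction that had a single start in the RefSeq promoter table (GRCh38.p14). Each runs from 250 bases before to 50 bases after the start, 5′ to 3′ on the strand of the gene. Capitals mark matches to 9 motifs, which were searched on both strands. LINC01518 (chr10:42691710-42692009, minus strand) and LINC01583 (chr15:82088344-82088643, plus strand) rose in shBry.
LINC01518: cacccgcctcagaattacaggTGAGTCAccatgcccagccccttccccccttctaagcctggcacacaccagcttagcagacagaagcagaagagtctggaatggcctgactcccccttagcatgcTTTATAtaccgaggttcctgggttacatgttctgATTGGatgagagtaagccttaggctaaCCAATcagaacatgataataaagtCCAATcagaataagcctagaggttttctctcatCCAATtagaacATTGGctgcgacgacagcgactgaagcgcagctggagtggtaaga
LINC01583: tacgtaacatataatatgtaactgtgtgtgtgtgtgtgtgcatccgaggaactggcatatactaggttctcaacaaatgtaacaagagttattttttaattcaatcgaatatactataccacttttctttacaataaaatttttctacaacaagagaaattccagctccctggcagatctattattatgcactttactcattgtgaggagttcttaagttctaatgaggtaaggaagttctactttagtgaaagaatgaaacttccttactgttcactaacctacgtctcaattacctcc

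LINC01224 (chr19:23416025-23416324, minus strand) and LINC01089 (chr12:121802897-121803196, minus strand) fell in shBry.
LINC01224: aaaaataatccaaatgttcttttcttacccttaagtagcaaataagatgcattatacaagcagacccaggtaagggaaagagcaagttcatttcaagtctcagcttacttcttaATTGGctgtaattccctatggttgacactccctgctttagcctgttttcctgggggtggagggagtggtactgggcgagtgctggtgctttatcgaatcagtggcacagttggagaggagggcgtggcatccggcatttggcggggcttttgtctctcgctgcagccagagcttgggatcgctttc
LINC01089: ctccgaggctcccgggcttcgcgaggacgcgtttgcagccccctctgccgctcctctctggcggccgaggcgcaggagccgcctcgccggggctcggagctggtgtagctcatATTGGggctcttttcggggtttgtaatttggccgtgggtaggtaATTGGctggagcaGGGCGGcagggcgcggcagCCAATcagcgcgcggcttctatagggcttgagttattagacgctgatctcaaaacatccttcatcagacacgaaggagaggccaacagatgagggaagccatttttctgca

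In the LINC01518 window, 5 of the 7 matches were CCAAT, which reads ATTGG where it lies on the other strand. The others were an AP-1 site, TGANTCA, and a TATA box, TATAAA, found as TTTATA on the other strand at bases -124 to -119. The LINC01583 window had no match, and its GC content was 34.0%. LINC01224 had 1 CCAAT, and LINC01089 had 3 CCAAT and 1 GC box, GGGCGG. A match describes the letters and does not show that a factor binds there.

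Windows were found for 72 of the 91 transcripts, with 83 windows in all. CCAAT stood in 48.2% of them and in 34.6% of all 35116 RefSeq windows. The GC box stood in 50.6% against 45.0%, the AP-1 site in 12.0% against 7.71%, and the TATA box in 13.3% against 11.5%. The E-box CACGTG stood in 7.23% against 7.26%, the ATF4-CEBP composite core TGATGNAA in 2.41% against 3.62%, the cAMP response element TGACGTCA in 2.41% against 1.85%, and the E2F core TTTCCCGC in 2.41% against 1.63%. AGGTGTGA, the core that T-box factors such as brachyury bind, stood in 1.2% of the windows, which was 1 window of a transcript that was not called, and in 0.98% of all windows. CCAAT stood in 13 of 23 windows of transcripts that rose, 5 of 8 of those that fell and 22 of 52 of the others. The median GC content was 60.3% in the LINC windows and 58.7% in all windows. Matches to the CCAAT and GC box motifs can overlap each other, and a window counts for each motif it holds.

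To find which LINC transcripts differ between cells with the brachyury hairpin and cells with the control hairpin, all 15277 genes that passed the filter were tested together. A gene was called when its Benjamini-Hochberg adjusted p from edgeR's quasi-likelihood test was below 0.05 and its fold change was above 1.5. A fold change is the level in shBry over that in shNC. Of the 91 LINC transcripts, 35 (38.5%) were called, beside 32.4% of all tested genes and 32.5% of the 13000 tested genes that had 200 or more counts. The 35 were 27 that rose in shBry (29.7%, beside 17.1% of all tested genes and 17.0% of those with 200 or more counts) and 8 that fell (8.79%, beside 15.2% and 15.5%). Other lncRNA genes of GENCODE 29 with 200 or more counts, 265 in number, were called at 43.8%, with 31.7% higher and 12.1% lower. The LINC transcripts were thus called about as often as other genes of their counts, and their calls were divided between the directions much like those of the other lncRNA genes. No test of these shares was made.

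The 3 shBry values did not overlap the 3 shNC values in 58 of the 91 transcripts, 36 of them higher and 22 lower, beside 59.5% of all tested genes (30.6% higher and 28.9% lower). The adjusted p alone was below 0.05 for 48 transcripts, 13 of which had a fold change of 1.5 or less, beside 53.3% of all tested genes. With a fold change above 2, 20 transcripts were called, beside 15.0% of all tested genes. The log2 fold changes ran from -1.62 to 2.87 with a median of 0.10, beside a median of 0.03 over all tested genes and 0.27 over the other lncRNA genes.

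**Figure D1:**
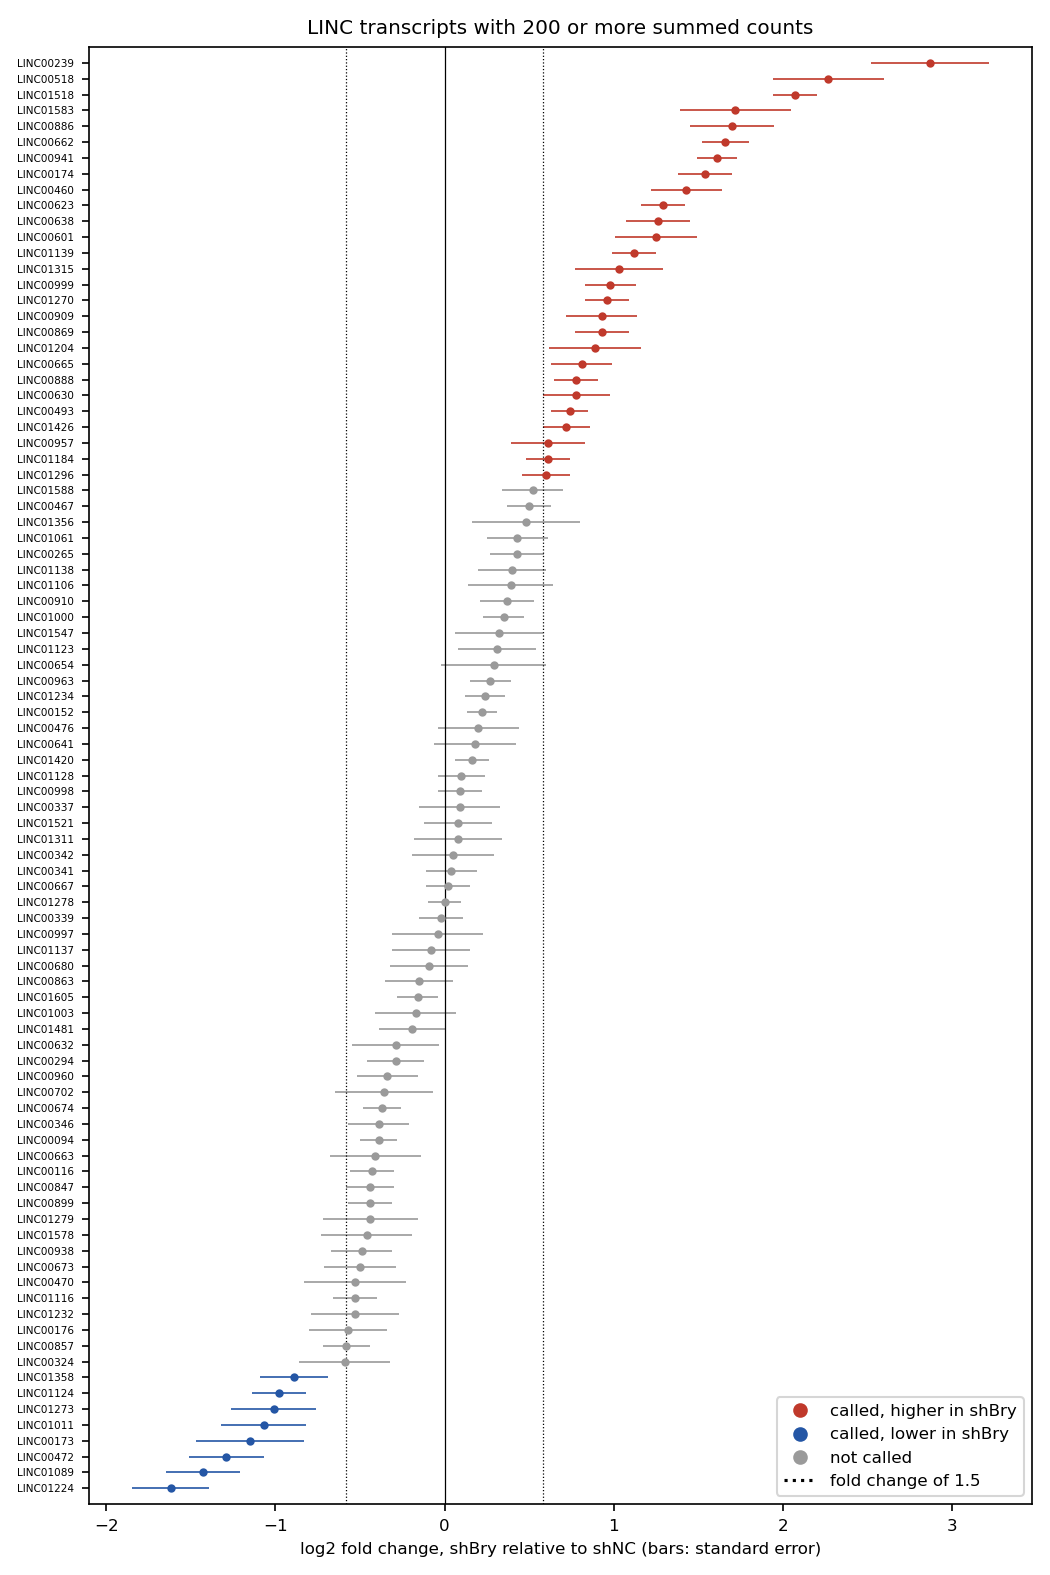
Log2 fold change of each of the 91 LINC transcripts, shBry relative to shNC, with bars of 1 standard error, and dotted lines at a fold change of 1.5. The 27 transcripts in red rose, the 8 in blue fell, and the 56 in grey were not called.

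Summed over the 91 transcripts, the level was 1041 ± 41.9 CPM in shBry (SD, n = 3, from 993.2 to 1071) and 877.3 ± 28.8 CPM in shNC (from 854.2 to 909.6). The groups did not overlap in this sum, which was not tested. The calls were then counted by where the transcript lies. Of the 39 over 10 kb from a coding gene, 14 rose and 4 fell. Of the 17 within 10 kb, 6 rose and 1 fell. Of the 16 that overlapped a coding gene, 3 rose, LINC00909 with 0.93 on the log2 scale among them, and 2 fell. Of the 4 with a divergent start and no overlap none rose and 1 fell. Of the 6 protein-coding ones 1 rose, and of the 9 that were not placed 3 rose. Among 28 lincRNAs with no exon overlap, 11 rose (39.3%) and 3 fell (10.7%). Beside these, 17.1% of all tested genes rose and 15.2% fell, and 31.7% and 12.1% of the other lncRNA genes. No shares were computed for other genes in like places, and differences between these small subsets were not tested.

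The calls were also counted by depth. Among the 39 transcripts with at least 200 and under 500 counts, 10 rose and 6 fell, and among the 19 with 2000 or more counts, 5 rose and none fell. In 12 transcripts one of the groups had under 100 counts, and 4 of these rose and 2 fell. Of the 79 with 100 or more counts in each group, 23 rose (29.1%) and 6 fell (7.59%). Beside these, 17.0% of the tested genes with 200 or more counts rose and 15.5% fell. Shares of all genes within each range of depth were not computed, and a trend with depth was not tested.

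The largest rise was that of LINC00239, a lincRNA gene at chr14:101730437-101732522 on the plus strand. Its level was 3.12, 2.53 and 3.81 CPM in shBry replicates 1, 2 and 3, and 0.687, 0.284 and 0.300 CPM in shNC. All shBry values stood above all shNC values. The log2 fold change was 2.87 (standard error 0.35, edgeR adjusted p = 1.1e-05), and it rested on 204 counts in shBry and 27 in shNC.

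LINC00518, on chromosome 6 (chr6:10429255-10434874, minus strand), is known as a marker RNA of melanoma. It had 4.52, 3.5 and 3.10 CPM in shBry and 0.596, 1.23 and 0.451 CPM in shNC. The groups did not overlap, and shNC replicate 2 was the highest of its group. The log2 fold change was 2.27 (standard error 0.33, edgeR adjusted p = 5.1e-05).

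LINC01518 (chr10:42674197-42691723, minus strand), whose start window is printed above, rose at a higher level. It had 27.2, 25.5 and 24.1 CPM in shBry and 5.64, 6.38 and 6.26 CPM in shNC. The libraries of each group stood close together. The log2 fold change was 2.07 (standard error 0.13, edgeR adjusted p = 1.3e-08), the smallest adjusted p of the 91. Per kb of its 519 exon bases the level was 49.39 CPM in shBry and 11.74 CPM in shNC.

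LINC01583 (chr15:82088594-82097694, plus strand) had 1.99, 3.5 and 1.91 CPM in shBry and 0.550, 0.851 and 0.851 CPM in shNC. All shBry values were higher, and shBry replicate 2 stood above the other libraries of its group. The log2 fold change was 1.72 (standard error 0.33, edgeR adjusted p = 6e-04). LINC00886 (chr3:156747346-156817062, minus strand) had 5.92, 4.85 and 4.92 CPM in shBry and 1.42, 2.27 and 1.10 CPM in shNC. The groups were apart, with a log2 fold change of 1.70 (standard error 0.25, edgeR adjusted p = 6.5e-05).

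LINC00662 (chr19:27684580-27793940, minus strand), an RNA often studied in carcinoma cells, had 17.0, 13.9 and 15.4 CPM in shBry and 4.90, 4.92 and 4.76 CPM in shNC. The shNC libraries were nearly alike, and the log2 fold change was 1.66 (standard error 0.14, edgeR adjusted p = 3.8e-07). LINC00941, at chr12:30795681-30802711 in the RefSeq table, is known to restrain the differentiation of keratinocytes and is often studied in carcinoma. It had 31.6, 26.7 and 32.3 CPM in shBry and 9.67, 9.93 and 10.1 CPM in shNC. The groups did not overlap, and the log2 fold change was 1.61 (standard error 0.12, edgeR adjusted p = 1.1e-07).

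LINC00460 (chr13:106374477-106384315, plus strand), an RNA linked to invasion of carcinoma cells, had 5.65, 4.30 and 5.67 CPM in shBry and 1.97, 1.70 and 2.10 CPM in shNC. It rose with no overlap and a log2 fold change of 1.43 (standard error 0.21, edgeR adjusted p = 5.9e-05). LINC00174 (chr7:66376044-66493566, minus strand) had 11.9, 12.9 and 11.1 CPM in shBry and 3.67, 4.40 and 4.31 CPM in shNC. Its log2 fold change was 1.54 (standard error 0.16, edgeR adjusted p = 1.8e-06), and 13.3% of its exon bases lie in exons of other genes. LINC00623 (chr1:120913275-121009291, plus strand) had 37.3, 28.9 and 36.0 CPM in shBry and 13.3, 15.7 and 12.7 CPM in shNC, with a log2 fold change of 1.29 (standard error 0.13, edgeR adjusted p = 2e-06). Of its 50-base stretches 64.6% are shared with other genes, LINC00869 among them, so its counts and those of LINC00869 (log2 fold change 0.93) are uncertain.

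**Figure D2:**
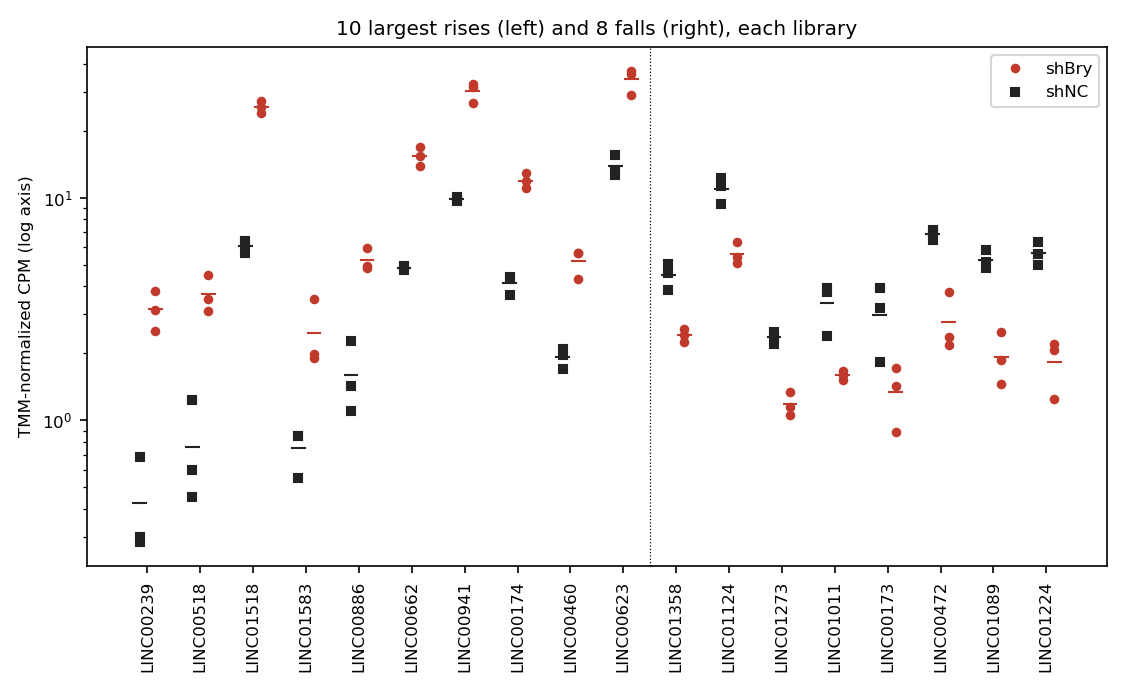
TMM-normalized CPM on a log axis for the 10 largest rises and the 8 falls, with 1 point for each library (red circles shBry, black squares shNC) and a short line at the group mean. In each of the 18 transcripts the 3 libraries of one group lie entirely above those of the other.

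The other 17 transcripts that rose had log2 fold changes from 0.60 to 1.26. LINC00638 rose by 1.26, LINC00601 by 1.25, LINC01139 by 1.12 and LINC01315 by 1.03. LINC00888, now named SNHG33 as a host of small nucleolar RNAs, rose by 0.78. LINC01296 rose by 0.60. Its current symbol is DUXAP9, a transcribed pseudogene that has a row of its own. That row, looked at after the values were seen, had a log2 fold change of 0.93 (edgeR adjusted p = 0.0025). Whether the 2 rows count the same locus was not tested. LINC01270 rose by 0.96, and 44.2% of its exon bases overlap exons of LINC01271 on the opposite strand.

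All 8 transcripts that fell had 1056 counts or fewer. The largest fall was that of LINC01224 (chr19:23399233-23416075, minus strand), with 2.21, 2.06 and 1.24 CPM in shBry and 5.59, 5.01 and 6.31 CPM in shNC. Every shBry value was below every shNC value. The log2 fold change was -1.62 (standard error 0.23, edgeR adjusted p = 4.8e-05).

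LINC01089 (chr12:121795267-121803906, minus strand), known as LIMT, an RNA that restrains invasion of mammary cells, had 1.45, 2.49 and 1.86 CPM in shBry and 4.86, 5.82 and 5.16 CPM in shNC. The groups did not overlap, and the log2 fold change was -1.43 (standard error 0.22, edgeR adjusted p = 1e-04). Its exons overlap those of other genes over 51.3% of their bases, so reads of these genes could be counted on it. RHOF, its nearest coding gene, overlaps it on the same strand. RHOF had 195.9 CPM in shBry and 159.9 CPM in shNC, a log2 fold change of 0.29 (edgeR adjusted p = 0.009), and was not called. The part of RHOF reads in the counts of LINC01089 was not tested.

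LINC00472 (chr6:71344344-71420769, minus strand) is studied as an RNA of favorable outcome in breast cancer. It had 2.37, 3.79 and 2.17 CPM in shBry and 6.46, 7.14 and 6.96 CPM in shNC. It fell without overlap, with a log2 fold change of -1.29 (standard error 0.22, edgeR adjusted p = 1.8e-04). LINC00173 (chr12:116533422-116536518, plus strand) had 1.72, 1.43 and 0.887 CPM in shBry and 1.83, 3.92 and 3.21 CPM in shNC. Its groups came close to each other at shBry replicate 1 and shNC replicate 1, and the log2 fold change was -1.15 (standard error 0.32, edgeR adjusted p = 0.0079).

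LINC01124 (chr2:170712451-170714567, minus strand) had 6.30, 5.44 and 5.10 CPM in shBry and 11.4, 12.3 and 9.37 CPM in shNC, a log2 fold change of -0.98 (standard error 0.16, edgeR adjusted p = 1.6e-04). LINC01011 (chr6:2987967-2991173, plus strand) had 1.67, 1.52 and 1.60 CPM in shBry and 2.38, 3.92 and 3.76 CPM in shNC, a log2 fold change of -1.07 (standard error 0.25, edgeR adjusted p = 0.0027). In both, the groups did not overlap. LINC01273 (chr20:50172550-50176671, plus strand) had 1.35, 1.05 and 1.15 CPM in shBry and 2.43, 2.51 and 2.20 CPM in shNC, a log2 fold change of -1.01 (standard error 0.25, edgeR adjusted p = 0.004). LINC01358 (chr1:58933643-59240555, plus strand) had 2.42, 2.57 and 2.26 CPM in shBry and 3.85, 4.59 and 5.06 CPM in shNC, a log2 fold change of -0.89 (standard error 0.20, edgeR adjusted p = 0.002). These were also without overlap.

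**Figure D3:**
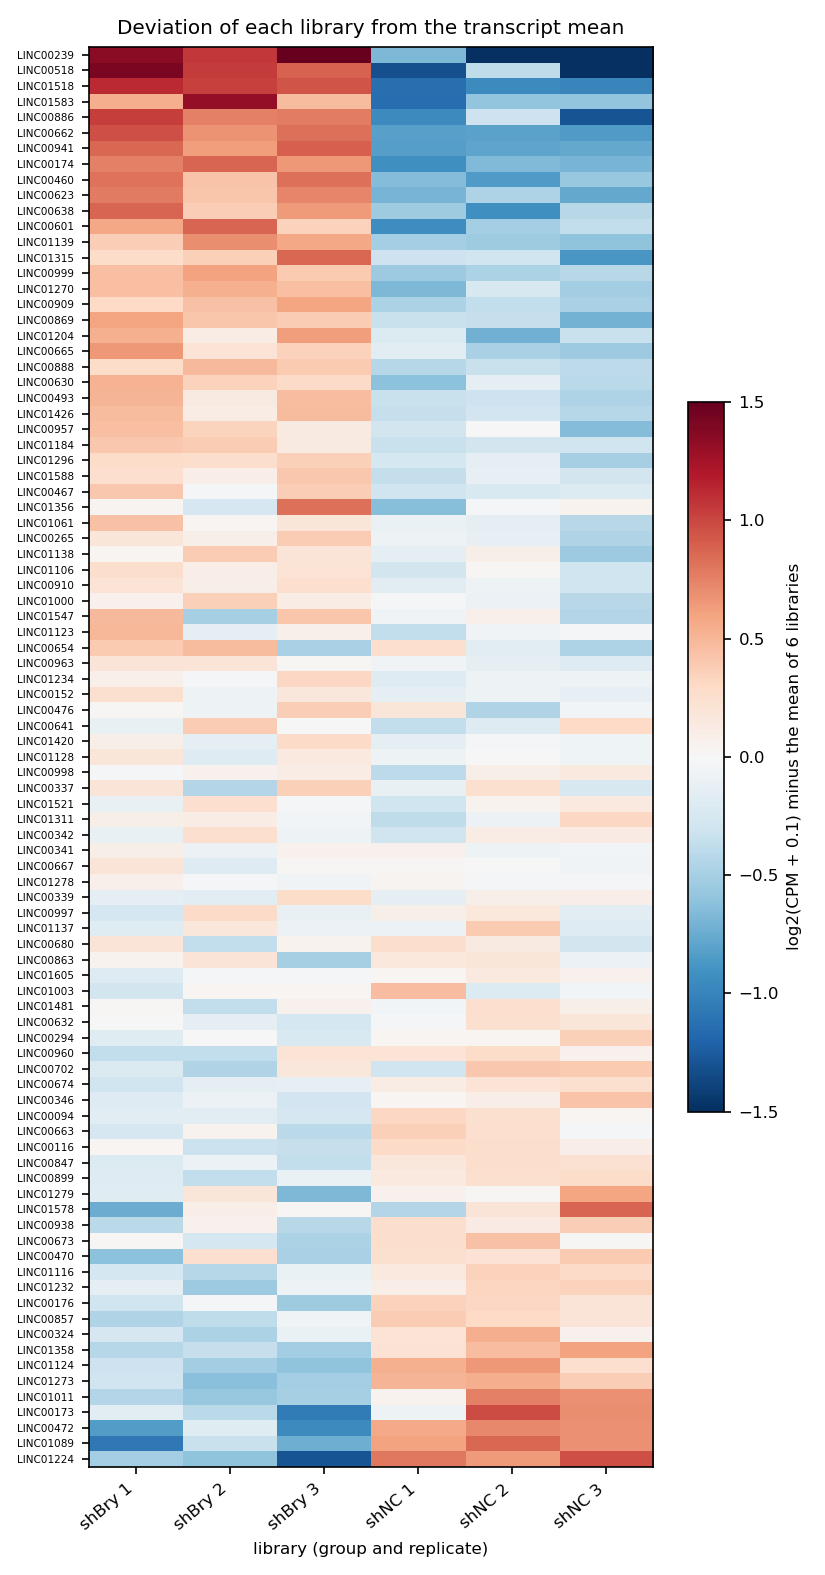
Deviation of each library from the mean of the 6 libraries, on the scale of log2(CPM + 0.1), for the 91 LINC transcripts ordered by fold change. Red is above and blue below the mean. The 27 transcripts at the top that rose are red in the shBry columns, the 8 at the bottom that fell are blue there, and most of the 56 between them are paler.

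Of the 10 transcripts with the highest mean CPM, which is not a level per length, 1 was called. LINC01420, which is now named NBDY and encodes a small protein of P-bodies, the granules where messenger RNA is decapped, had the most counts. It had 84.04 ± 12.5 CPM in shBry and 74.95 ± 2.88 CPM in shNC (SD, n = 3), with a log2 fold change of 0.16 (edgeR adjusted p = 0.2). LINC00152, now CYTOR, the cytoskeleton regulator RNA, had 72.6 ± 8.14 CPM in shBry and 62.1 ± 1.21 CPM in shNC, with a log2 fold change of 0.22 (edgeR adjusted p = 0.06). It shares 24.9% of its 50-base stretches with transcripts of other genes. MIR4435-2HG, which holds such stretches, was looked at after the values were seen and had a log2 fold change of -0.26 (edgeR adjusted p = 0.034), so the division of counts between the pair is uncertain.

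The 1 that was called among these 10 was LINC00493. It is now named SMIM26, encodes a small protein of the mitochondrial membrane and had 50.1, 38.7 and 48.4 CPM in shBry and 27.9, 28.5 and 25.5 CPM in shNC. All shBry values were higher, with a log2 fold change of 0.74 (standard error 0.11, edgeR adjusted p = 8.9e-05). LINC01000 had 52.4 CPM in shBry and 41.1 CPM in shNC, with a log2 fold change of 0.35 (edgeR adjusted p = 0.022), under the fold change limit. LINC00094 at -0.39 (edgeR adjusted p = 0.0083) and LINC00674 at -0.37 (edgeR adjusted p = 0.0094) were likewise under the limit. LINC00998 at 0.09, LINC01234 at 0.24, LINC00339 at -0.02 and LINC01278 at 0.00 had adjusted p between 0.11 and 0.98 in the same edgeR test.

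Per kb of exon, the mean level over the 6 libraries ran from 0.0567 CPM for LINC00632 to 46.57 CPM for LINC01420 over the 82 placed transcripts. LINC01420 was followed by LINC00674 with 37.81, LINC00493 with 33.23, LINC01518 with 30.57, LINC00998 with 16.48 and LINC00623 with 11.56 CPM per kb. LINC01420, LINC00493 and LINC00998 encode small proteins, and LINC01518 and LINC00623 were among the 10 largest rises. The exon bases are those of all transcripts of a gene in GENCODE 29 together, so levels per kb are too low where a cell uses only a short isoform. The annotation behind the counts is not given, and levels per kb are too high where it holds a longer gene. LINC01518 with 519 and LINC00674 with 734 exon bases have short genes in GENCODE 29.

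**Figure D4:**
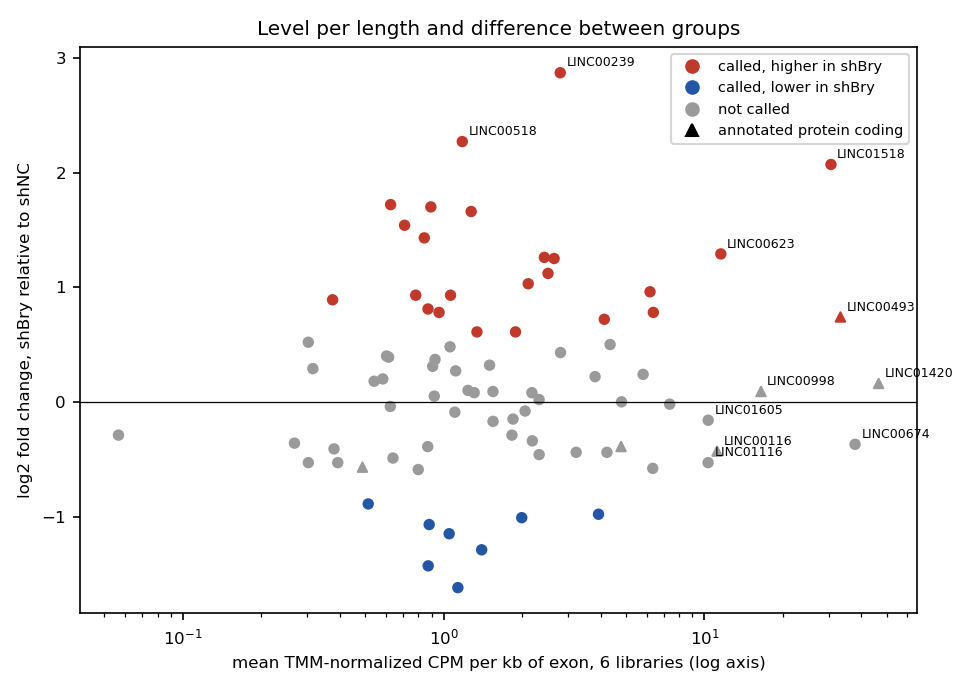
Log2 fold change against the mean level in CPM per kb of exon (log axis) for the 82 placed LINC transcripts, colored by call, with triangles for those annotated as protein coding and names at the highest levels and the largest rises. LINC01518 stands apart, with 30.57 CPM per kb and a log2 fold change of 2.07.

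The small proteins were counted from a list of 12 LINC symbols since found to encode one. Of these, 5 were among the 91 transcripts, and 1 of the 5, LINC00493, was called, beside 32.4% of all tested genes. LINC00116, now MTLN, encodes mitoregulin, a small protein of the inner mitochondrial membrane. It had 23.0, 18.0 and 17.7 CPM in shBry and 27.6, 27.1 and 24.1 CPM in shNC, with a log2 fold change of -0.43 (edgeR adjusted p = 0.012). Its groups did not overlap, but the fold change was under the limit. LINC00998, now SMIM30, and LINC00094, now BRD3OS, are given above.

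The LINC RNAs with a described role were counted from a list of 25. Of these, 12 were among the 91 transcripts, and 4 of the 12 (33.3%, beside 32.4% of all tested genes) were called. LINC00941, LINC00460 and LINC00665 were higher and LINC00472 was lower. The list was not complete, and the share depends on it. LINC00518, LINC00662 and LINC01089, whose described roles are named above, were called but were not in the list. LINC00665, also studied in carcinoma, had 9.48, 6.91 and 7.63 CPM in shBry and 5.32, 4.26 and 4.06 CPM in shNC, a log2 fold change of 0.81 (standard error 0.18, edgeR adjusted p = 0.0019). The other 8 of the 12 did not pass. LINC00467 had 0.50 (edgeR adjusted p = 0.0057) and LINC01116 had -0.53 (edgeR adjusted p = 0.0029) on the log2 scale, both without overlap but under the fold change limit. LINC00346 had -0.39, LINC00673 had -0.50 and LINC00963 had 0.27, with edgeR adjusted p between 0.06 and 0.086, and LINC00152 and LINC00339 are given above.

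LINC01578, now named CHASERR, is known to restrain CHD2, the chromatin remodeler gene next to it. It had 7.0, 12.6 and 11.9 CPM in shBry and 8.61, 13.5 and 21.6 CPM in shNC. The groups overlapped and shNC replicate 3 was the highest library. The log2 fold change was -0.46 (edgeR adjusted p = 0.17), and that of CHD2, looked at after the values were seen, was -0.04 (edgeR adjusted p = 0.74). LINC00704, or MANCR, had 75 counts in all and a log2 fold change of -0.31. LINC00473 and LINC01133 had no count in any library.

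The lncRNAs that carry names of their own were counted beside them from a list of 34. Of these, 18 were tested and 7 (38.9%, beside 32.4% of all tested genes) were called, with 4 higher (22.2%, beside 17.1%) and 3 lower (16.7%, beside 15.2%). No test of these shares was made. NORAD, which binds Pumilio proteins, had the highest level, with 189.1 ± 18.8 CPM in shBry and 148.7 ± 12.0 CPM in shNC, and a log2 fold change of 0.35 (edgeR adjusted p = 0.0059), under the limit. UCA1, an RNA known from bladder carcinoma, had 168.1 ± 4.62 CPM in shNC and fell to 60.03 ± 3.59 CPM in shBry (log2 fold change -1.49, edgeR adjusted p = 3.7e-09). MALAT1, an RNA of nuclear speckles, had a log2 fold change of 0.67 (edgeR adjusted p = 0.013), though its groups overlapped. NEAT1 at 0.08, TUG1 at 0.15 and SRA1 at 0.15 were not called.

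To compare the LINC transcripts with their neighbours, the nearest protein-coding gene was taken for those that overlapped it or lay within 10 kb of it. This held for 42 of the 82 placed transcripts, and 34 of these neighbours were tested. Both were called in 4 pairs, only the LINC transcript in 6, only the neighbour in 9 and neither in 15. Thus 10 of the 34 LINC transcripts and 13 of the 34 neighbours were called, beside 32.4% of all tested genes. The difference between a transcript and its neighbour was not tested.

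The 4 pairs divided into 2 with the same direction and 2 with opposite directions. LINC01124 starts 784 bases from SP5, a zinc finger transcription factor gene of Wnt signaling, on the opposite strand, and the log2 fold changes were -0.98 and -0.93. LINC01426 lies 2915 bases from the nearer end of RUNX1, a transcription factor gene of blood cells and epithelia, but their starts are 1258910 bases apart. The log2 fold changes were 0.72 and 0.67. LINC00518 lies 9596 bases from TFAP2A, a transcription factor gene of epithelia and neural crest, and rose by 2.27, whereas TFAP2A had -0.97 (edgeR adjusted p = 0.0047). LINC00174 overlaps TPST1, a tyrosylprotein sulfotransferase gene, and rose by 1.54, whereas TPST1 had -0.61 (edgeR adjusted p = 2.9e-04).

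LINC01011 overlaps NQO2, a quinone reductase gene, with starts 20 bases apart on the same strand, and NQO2 had a log2 fold change of 0.03. ZNF91 beside LINC01224 had -0.31, BRD3 beside LINC00094 had 0.11 and SPIN4 beside LINC01278 had -0.05, and none of these was called. SPIN3 beside LINC01420 rose by 0.75. Among the pairs where only the neighbour was called, chosen after the values were seen, LINC01137 starts 141 bases from ZC3H12A, an RNase gene of the inflammatory response, in the opposite direction. LINC01137 had a log2 fold change of -0.08 and ZC3H12A of 2.10. LINC01547 starts 97 bases from FAM207A, with 0.32 and -0.88.

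Beyond 10 kb, LINC01273 and LINC01270 both have CEBPB, a transcription factor gene of inflammation and differentiation, as their nearest coding gene. This pair was chosen after the values were seen. CEBPB rose from 61.9 ± 3.34 CPM in shNC to 186.6 ± 21.3 CPM in shBry, a log2 fold change of 1.59 (edgeR adjusted p = 9.3e-09). LINC01273, at 14063 bases, fell by 1.01 on the log2 scale, and LINC01270, at 100031 bases, rose by 0.96.

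**Figure D5:**
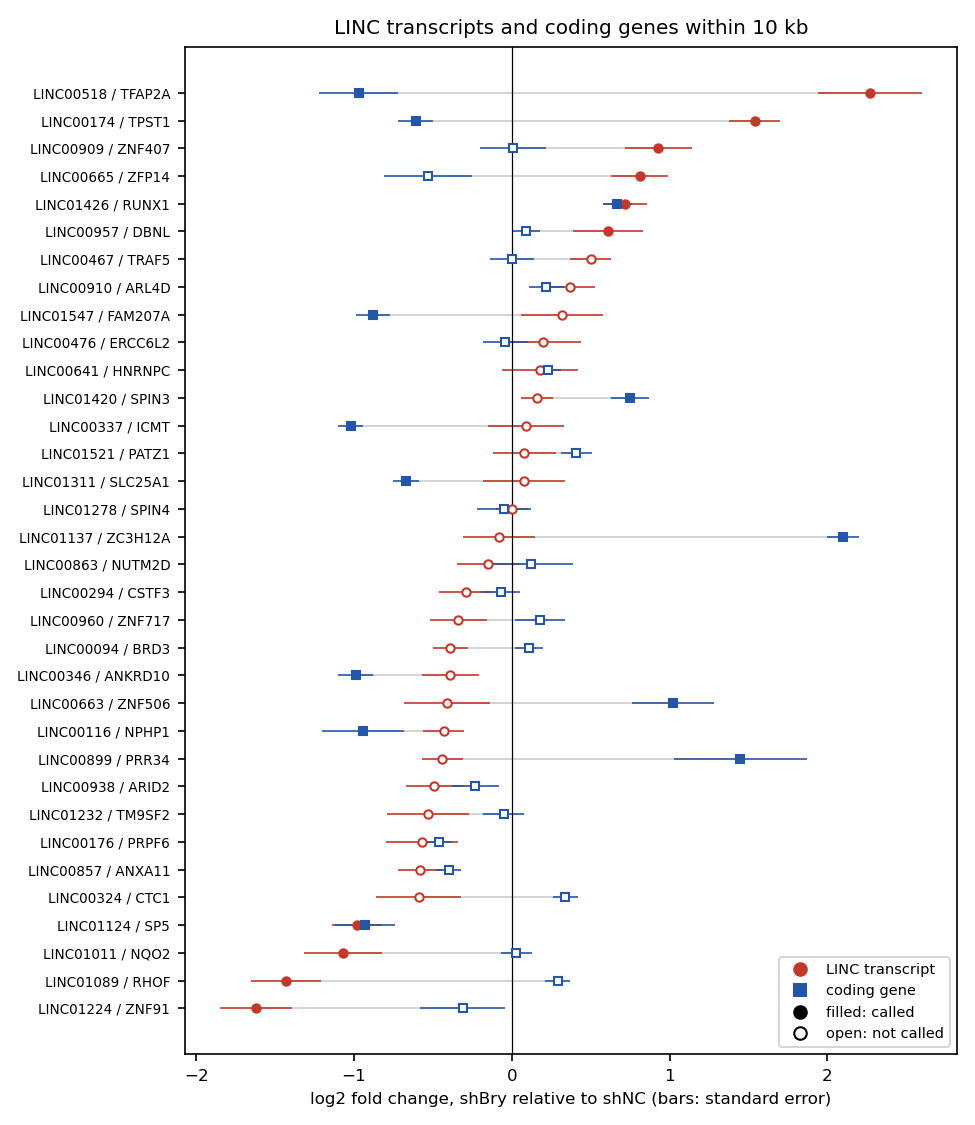
Log2 fold change, shBry relative to shNC, of each LINC transcript (red circles) and its nearest tested protein-coding gene (blue squares), 1 line for each of the 34 pairs that overlap or lie within 10 kb, with bars of 1 standard error and filled symbols for called genes. Both symbols are filled in 4 pairs, and in the top pairs, LINC00518 with TFAP2A and LINC00174 with TPST1, they lie on opposite sides of 0.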

How the data were processed

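RNA of MDA-MB-231 shBry and shNC cells was sequenced in 3 libraries each. The authors deposited raw counts, whole numbers of reads per gene symbol, without normalization. Their processing notes name HISAT2 2.0.4, HTSeq and GRCh38. The annotation and the strand setting are not given in the sources used here.

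From the deposited counts, rows were filtered with filterByExpr (minimum count 10), scaled by TMM and compared with edgeR 4.0.16 (R 4.3.3, quasi-likelihood test), with Benjamini-Hochberg adjustment over 15277 genes. Calls needed a fold change above 1.5, as in the study, with an adjusted p under 0.05. Standard errors came from the fold change and the F statistic. In simulated counts of 15076 genes, 77.1% of 96 genes changed by 1 on the log2 scale were recovered. Of 95 genes changed by 2, 100% were recovered, and there were 4 false calls. Far fewer genes were changed than were called in the data, and the simulated spread followed the trend over level. The simulation thus checks the code and does not measure the power of this comparison.

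Symbols were matched to GENCODE 29 on GRCh38: 74 by symbol, 7 by a RefSeq synonym and 1 by a later symbol. For 4 there was no match, for 2 several genes, and for 3 the current symbol had a row of its own. Windows came from RefSeq (GRCh38.p14).

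Named were the 10 highest levels, the 10 largest rises and the falls without overlap, listed genes, those at the count limit and near coding genes. The members and lists were chosen with earlier results of these data known.

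Libraries of 1 group differed by more than sampling noise (chi-square per degree of freedom 5.04 to 17.1). Alternatives were no TMM, DESeq2 1.42.0, limma-voom 3.58.1, other filters, other fold limits, unadjusted p, other count limits, subsets of the transcripts, the replicate block and each library left out. ChIP-seq and cell assays were not analysed here.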

Additional observations from a re-analysis of the deposited data

How the results depend on the processing

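The number of LINC transcripts called was 35, and it stayed between 34 and 36 without TMM, with DESeq2, limma-voom, no filter, at least 10 counts in every library and unadjusted p. With each library left out it was 34 to 38, with 25 to 26 higher and 9 to 12 lower, and 31 of the 35 kept their call and direction in all 6 of these fits. LINC00957 (log2 fold change 0.43 to 0.76), LINC01296 (0.48 to 0.66), LINC01204 (0.72 to 1.02) and LINC01184 (0.56 to 0.70) were lost in some of them. Over all genes 4587 to 5025 were then called, and the median log2 fold change of the LINC transcripts was 0.07 to 0.15, the highest without shNC replicate 3. Without shBry replicate 2, 12 fell.

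The fold change limit, the count limit and the removal of overlapping transcripts moved the counts by over 1.5 times. Above 2-fold, 20 were called, 14 of them higher, and 2297 of all genes. Without a limit 17 fell, and 8139 of all genes were called. From 500 counts, 19 were called (17 higher, 2 lower, median 0.25), and from 1000 counts, 15 (14 higher, 1 lower, median 0.25). From 100 counts the median was 0.22, and with 100 counts in each group it was 0.16. Without transcripts whose exons overlap other exons, 16 of 39 were called, 12 higher and 4 lower. Fewer transcripts entered the last 2 kinds of count. With those annotated as noncoding alone, a choice made after seeing the data, 31 of 76 were called.

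Same-numbered libraries of the groups had correlations of their deviations of 0.29, -0.159 and -0.069. Libraries of unlike numbers had -0.347 to 0.357. With 3 libraries in each group, these values cannot show whether the numbers pair them. With the replicate block, 36 LINC transcripts and 4914 of all genes were called.

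Of 568 values of single named transcripts under the alternatives, 11 changed sign, all in transcripts that were not called. The alternatives that only move the p or fold change threshold leave these values as they were. LINC01278 had -0.02 without TMM, with DESeq2 and without a filter, -0.01 with at least 10 counts in every library, -0.00 with limma-voom, and -0.04 to 0.03 with a library left out. With a library left out, LINC00998 had -0.07 (without shNC replicate 1) to 0.17, and LINC00339 had -0.18 to 0.05 (without shBry replicate 2). LINC01578 had -0.73 without shNC replicate 1, LINC00470 -0.90 and LINC00467 0.62 without shBry replicate 2. LINC00673 had -0.64 without shBry replicate 1 and -0.63 without shNC replicate 3. LINC01116 had -0.62 without shBry replicate 3 and -0.59 without shNC replicate 1. These last 5 transcripts then passed the threshold. The cause of these changes was not tested.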
